A study of Caenorhabditis elegans with 32 samples.

Results

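The genes described here encode the vacuolar proton pump (V-ATPase, vha genes) and the cathepsin-type proteases (cpr, cpl and asp genes) of Caenorhabditis elegans. Members were the protein-coding genes of the deposited count table whose name is vha, cpr, cpl or asp followed by a number, which gave 45 of 46726 genes. They comprised 19 V-ATPase genes, 7 cysteine cathepsins and 19 aspartyl proteases. The rule that picked members used gene names alone, while these gene families were chosen for description with earlier results of these data known. A pump gene still known by another name, such as the a subunit unc-32, was therefore not a member.

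The V-ATPase pumps protons into lysosomes, endosomes and synaptic vesicles. Its cytosolic V1 sector hydrolyses ATP, and its membrane-embedded V0 sector carries the protons. The acid lumen it makes activates cathepsins, the proteases that break down proteins delivered by endocytosis and autophagy. In neurons the same pump powers the loading of neurotransmitter into synaptic vesicles, and in the worm intestine, epidermis and excretory canal it also acts at the cell surface.

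RNA came from sorted O2-sensing neurons and from unsorted, dissociated whole worms, with 4 independent replicate libraries in each of 8 groups. The groups were neurons of day 7 adults kept at 21% or 7% O2, neurons of day 1 adults kept at 21% or 7% O2, and whole worms of the same ages and O2 levels. All 32 libraries came from hermaphrodites of the npr-1(ad609) strain KL123, which carries the GFP transgene iaIs25 under the gcy-37 promoter, and all animals ate mex-3 RNAi bacteria from the L3 larval stage, with the day 7 animals returned to OP50 bacteria on day 4. O2-sensing neurons are tonically active at 21% O2 and silent at 7% O2, and the paper takes culture O2 as a proxy for their activity. The libraries vary age and culture O2, so effects of activity and of O2 itself cannot be told apart here. The sort took GFP-positive cells. The gcy-37 promoter marks the URX, AQR and PQR neurons strongly and a few other neurons weakly, so the sorted cells were an enriched population rather than 1 cell type.

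Libraries held between 5365596 and 30666288 gene counts. Levels are given in CPM, the usual expression of a gene's counts relative to its library total, scaled between libraries by the trimmed mean of M values (TMM). The summed level of 7 O2-sensing neuron markers was 327 to 869 CPM in day 7 neurons and 2756 to 9644 CPM in day 1 neurons, against 7.52 to 22.1 CPM in whole worms, and none of the 7 was at 0 in any group. Other neuron markers moved the same way between the ages. Touch neuron markers (7 genes, AVM being a touch neuron among the weakly marked cells) summed to 335 to 1250 CPM in day 7 neurons and 5198 to 28388 CPM in day 1 neurons, against 15.7 to 102 CPM in whole worms, and 11 markers of all neurons to 2330 to 7156 CPM and 23167 to 46700 CPM, against 351 to 769 CPM in whole worms. None of these 18 was at 0 in any group. Summed intestinal markers (14 of 15 listed genes) moved the other way between the ages, at 5578 to 14365 CPM in day 7 neurons and 741 to 4617 CPM in day 1 neurons, against 18188 to 56219 CPM in whole worms. In the day 1 neurons at 7% O2, fat-7 and ges-1 of that list were at 0. Replicate 4 of the day 7 neurons at 21% O2 had the highest intestinal marker sum of the neuron libraries, and replicate 1 of the day 1 neurons at 7% O2 had the lowest O2-sensing marker sum among day 1 neurons and the highest muscle marker sum of the neuron libraries. The neuron age results are also given without these 2 libraries. For the other comparisons that use them, counts are given with each library left out in turn.

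The members lay on every chromosome, with 23 of 45 on chromosome V, and 16 of them lay within 5000 nt of another member. In the WBcel235 assembly, the c subunit gene vha-2 occupied III:9782164-9783224 on the plus strand, 401 nt from vha-1. vha-8 occupied IV:6791074-6792455 on the plus strand and vha-12 occupied X:4191094-4193144 on the plus strand. Among the proteases, cpl-1 occupied V:16592572-16595346 and asp-1 occupied V:19049562-19050752, both on the minus strand, and cpr-6 occupied X:6607207-6609045 on the plus strand. Reads were counted over exons without regard to strand. In 4 members over 5% of the exon length overlapped another gene, so that their reads can include that neighbour's: vha-2 (22.7%), vha-17 (6.68%), asp-2 (5.36%) and vha-19 (5.15%). vha-2 and vha-3 encode the same protein. Per the study's methods, counting required a minimum alignment quality, and how far this removed reads that fit both genes was not tested.

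A member was called different when the edgeR quasi-likelihood test gave an adjusted p (Benjamini-Hochberg over all genes tested) under 0.1 and a fold of at least 1.5. Of the 45 members, 34 had enough counts to be tested in all 16 comparisons, 3 were tested in some and 8 in none.

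The first question was how the members differ between O2-sensing neurons and the whole animal. V-ATPase transcripts were much higher in day 7 neurons than in day 7 whole worms, whereas protease transcripts were lower in neurons at both ages. In day 7 animals at 21% O2, 16 members were called higher and 11 lower in neurons of 36 tested, where 23.5% of all genes tested were called higher and 16.8% lower (40.2% in all). At 7% O2 on day 7, 16 were called higher and 16 lower of 36, beside 24.7% and 21.1% of all genes (45.9% in all). On day 1 the counts were 7 higher and 17 lower of 35 at 21% O2, beside 30% and 22.8% of all genes (52.8% in all), and 7 higher and 16 lower of 36 at 7% O2, beside 26.8% and 19.5% (46.3% in all). All members called higher in these 4 comparisons were V-ATPase genes.

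Of the 19 V-ATPase genes, 16 were called higher and 1 lower in day 7 neurons at 21% O2, with a median log2 difference of 2.08, against a median of 0.09 over all genes tested. At 7% O2 on day 7, 16 were higher and 2 lower, with a median log2 difference of 1.89 against 0.04 over all genes. On day 1 the pump genes were nearer to the whole worm level. 7 were higher and 4 lower at 21% O2 (median log2 difference 0.51), and 7 were higher and 3 lower at 7% O2 (median 0.54). At 7% O2 on day 1, 4 were called higher with the replicate number as a block, and 4 without replicate 2, 3 or 4 of the whole worms. Summed over the 19 genes, the V-ATPase level was 4997 ± 863 CPM in day 7 neurons against 1341 ± 147 CPM in day 7 whole worms at 21% O2, and 6010 ± 1054 against 1599 ± 101 CPM at 7% O2 (SD, n = 4 each). On day 1 the sums were 2925 ± 494 CPM in neurons against 2314 ± 240 CPM in whole worms at 21% O2, and 2805 ± 953 against 1925 ± 453 CPM at 7% O2. In bulk samples such as these, fewer cells of a type and less RNA per cell cannot be told apart.

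**Figure D1:**
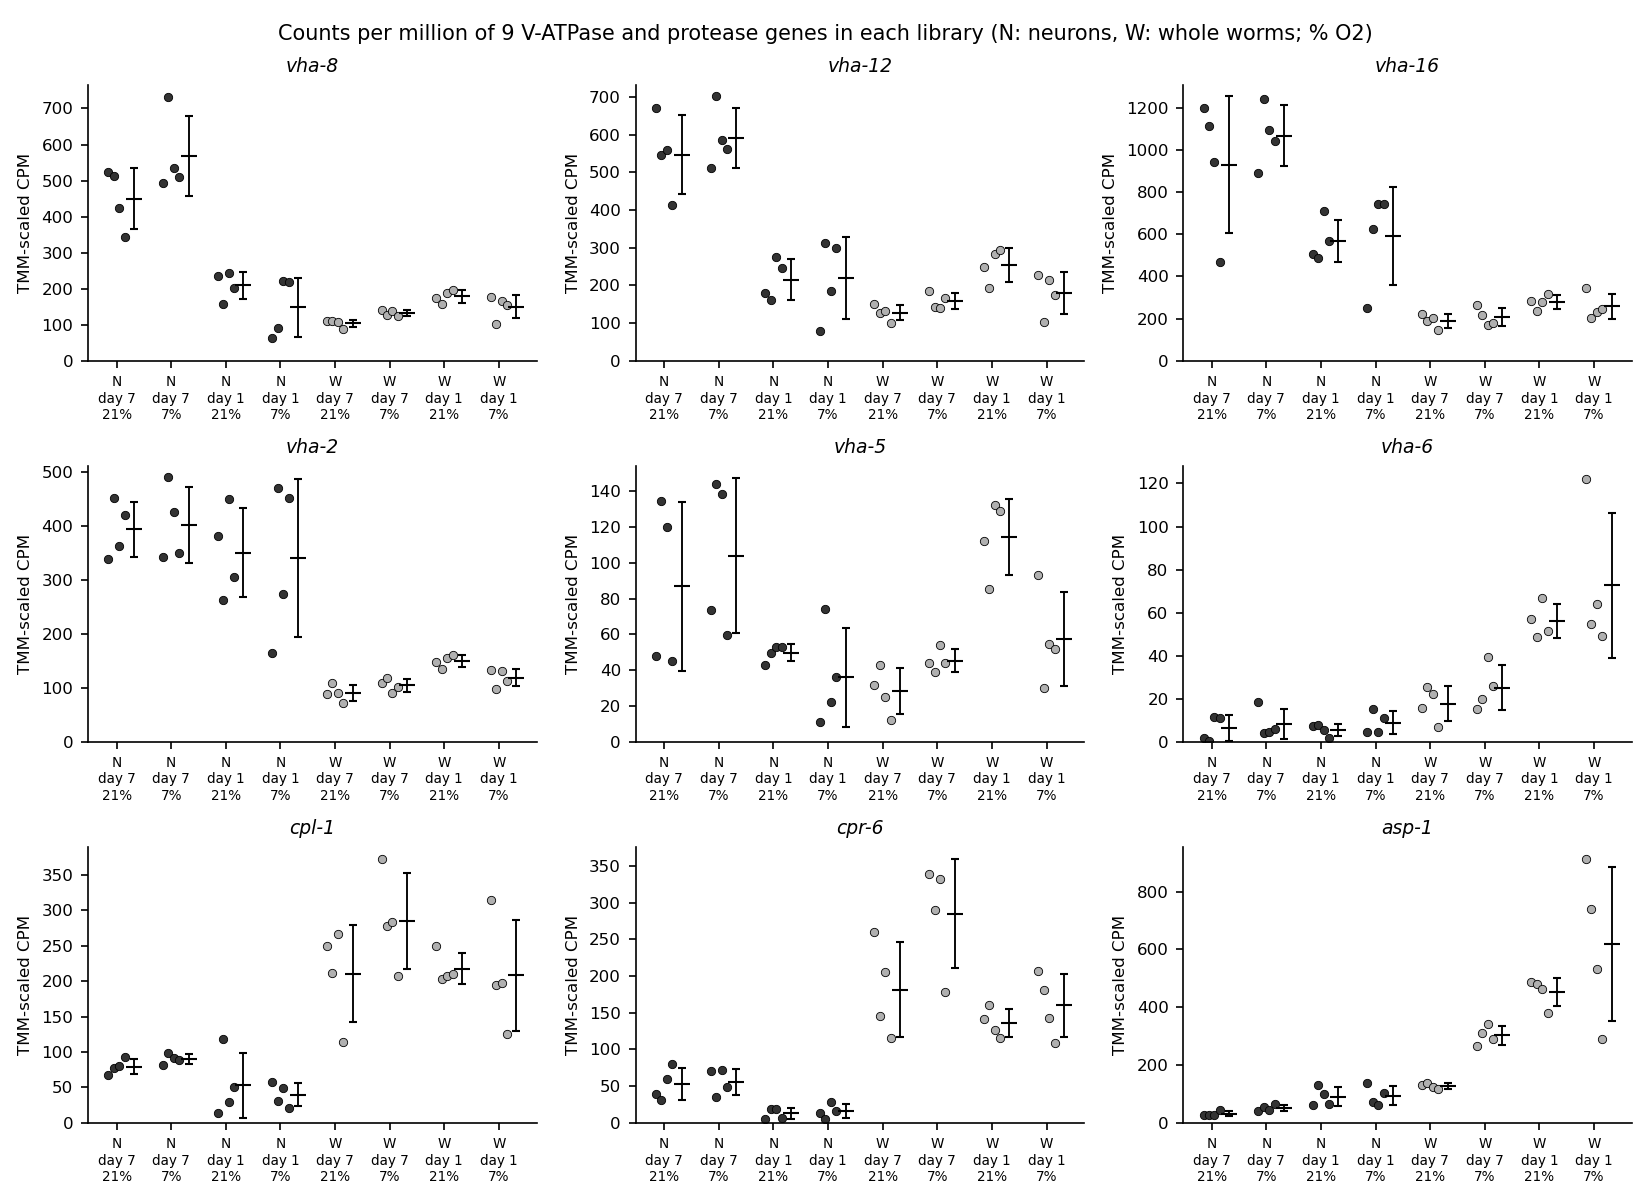
TMM-scaled CPM of 9 members (y axes) in each of the 32 libraries (points, with the mean and SD as a bar) by group (x axes, N for neurons in dark and W for whole worms in grey, with day and O2 percent). The vha-8 panel shows all 8 day 7 neuron libraries at 343 to 733 CPM, above every other library, and the asp-1 panel shows each neuron group below the whole worm group of the same age and O2 level.

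The V1 sector showed the difference across nearly all its subunits. VHA-8 is the E subunit of the peripheral stalk. vha-8 had 522, 512, 423 and 343 CPM in day 7 neurons at 21% O2, against 109, 110, 107 and 89 CPM in day 7 whole worms. The groups did not overlap, and the log2 difference was 2.14 (SE 0.20, adjusted p = 2.59e-05, edgeR quasi-likelihood test with Benjamini-Hochberg adjustment), a 4.41-fold excess. On day 1 the same gene had 234.6, 158, 242 and 201 CPM in neurons against 174, 156, 188 and 196.5 CPM in whole worms, where the groups overlapped and the log2 difference of 0.36 (adjusted p = 0.155 in the edgeR test) was not called. vha-14 (subunit D, of the central rotor) was called higher at both ages. It had 253, 409, 396 and 309 CPM in day 7 neurons at 7% O2 against 51.6, 54.8, 56.9 and 49.1 CPM in whole worms. Its log2 difference was 2.67 (SE 0.20, adjusted p = 1.79e-06) on day 7 and 1.20 (SE 0.29, adjusted p = 0.00797) on day 1 in the edgeR test at 7% O2. The catalytic A subunit vha-13 and the B subunit vha-12 differed by 1.64 and 2.12 log2 units on day 7 at 21% O2, both called, and by -0.03 and -0.10 on day 1, neither called. The F subunit vha-9 and the G subunit vha-10 were called higher at both ages and both O2 levels. At each O2 level, 8 of the 9 V1 genes were called higher on day 7, and 3 at 21% O2 and 4 at 7% O2 were called higher on day 1.

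The exception in V1 was vha-18, the lesser expressed of the pair of H subunit genes. vha-18 had 3.3, 2.61, 0.234 and 12.6 CPM in day 7 neurons at 21% O2 against 19, 31.2, 20.9 and 42.5 CPM in whole worms, and it was called lower in neurons in all 4 comparisons, with log2 differences between -2.86 and -2.42. On day 7 at 21% O2 the call was lost without replicate 1 or 2 of the neurons or replicate 4 of the whole worms. Its partner vha-15 was called higher in day 7 neurons at both O2 levels (2.45 and 1.92 log2 units). Of the summed CPM per kb of exon of this pair, vha-15 accordingly took 97.6% in day 7 neurons against 59.7% in day 7 whole worms at 21% O2. At 7% O2 it took 98.2% against 73.5%.

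In the V0 sector, VHA-16 is the d subunit, which couples the rotor to the proton-carrying ring. vha-16 had the highest level per kb of transcript of any member in day 7 neurons, at 633 ± 221 CPM per kb at 21% O2 and 726 ± 98.3 CPM per kb at 7% O2 (SD, n = 4), ahead of the G subunit gene vha-10 at 479 ± 141.8 and 655 ± 166 CPM per kb, from which it did not differ beyond the spread. It also led the members in day 1 neurons at 21% O2 with 387 ± 67.4 CPM per kb. Its libraries stood at 891, 1241, 1092 and 1043 CPM in day 7 neurons at 7% O2 against 265, 215, 172 and 181 CPM in whole worms. The log2 difference was 2.34 (SE 0.17, adjusted p = 1.78e-06, edgeR test). In whole worms the order per kb was led by proteases. asp-6 was highest on day 7 at 21% O2 with 229 ± 27.5 CPM per kb, followed by cpl-1 with 177 ± 57.4 and cpr-6 with 144 ± 51.1, whose ranges overlapped that of vha-16 at 128 ± 22.8. On day 1 at 21% O2, asp-1 led whole worms with 380 ± 41.1 CPM per kb.

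The c ring is built from vha-1, vha-2 and vha-3, with the related vha-4. vha-2 was called higher in neurons in all 4 comparisons. It had 339, 451, 363 and 421 CPM in day 7 neurons at 21% O2 against 89, 109, 89.8 and 71.6 CPM in whole worms, with a log2 difference of 2.15 (SE 0.20, adjusted p = 2.88e-05, edgeR test). On day 1 at 21% O2 it had 381, 263, 450 and 306 CPM in neurons against 147, 134, 155 and 160 CPM in whole worms (log2 difference 1.37, SE 0.20, adjusted p = 0.000198, edgeR test). The groups did not overlap at either age. vha-3, the lesser copy, took 12.8% ± 2.38 of the summed CPM per kb of exon of these 3 c genes in day 7 neurons at 21% O2 (SD, n = 4). In day 7 whole worms at 21% O2 it took 5.58% ± 2.62, and its log2 difference was 3.18 (SE 0.55, adjusted p = 0.00163, edgeR test). On day 1, when its share was 6.32% ± 2.59 in neurons and 7.75% ± 0.880 in whole worms, the log2 difference of 0.93 (adjusted p = 0.144, edgeR test) was not called.

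The a subunits, which form the proton path and differ by tissue, departed from the rest of the pump. unc-32 is the neuronal form, vha-6 is the form of the intestinal apical membrane, and vha-5 acts in the epidermis and excretory canal. vha-6 had 7.18, 7.83, 5.31 and 1.85 CPM in day 1 neurons at 21% O2 against 57.2, 48.9, 66.6 and 51.3 CPM in whole worms, and was called lower by 3.2 log2 units (SE 0.45, adjusted p = 0.000156, edgeR test). On day 7 at 21% O2 it had 1.85, 0.119, 11.6 and 11.2 CPM in neurons against 15.5, 25.5, 22.4 and 7.04 CPM in whole worms, and the log2 difference of -1.48 was not called, while at 7% O2 on day 7 the difference of -1.64 was, except without replicate 3 of the neurons or replicate 3 of the whole worms. vha-5 was called lower in day 1 neurons at 21% O2 (-1.06 log2 units) and higher in day 7 neurons at both O2 levels (1.65 and 1.19). vha-7 was called lower in day 1 neurons only, by 2.39 log2 units at 21% O2 and 2.20 at 7% O2, the call at 7% O2 being lost without replicate 3 of the neurons.

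Of the summed CPM per kb of exon of the 4 a subunit genes, unc-32 held 86.3% ± 4.53 in day 1 neurons at 21% O2 (SD, n = 4). In day 1 whole worms at 21% O2 it held 28.7% ± 4.93. In day 7 neurons its share was 47.2% ± 14, against 48.5% ± 4.05 in day 7 whole worms. vha-5 took 36.9% ± 9.45 in day 7 neurons and 10.8% ± 3.23 in day 1 neurons at 21% O2, and 41.1% ± 13.3 and 6.84% ± 2.28 at 7% O2. The vha-6 share stayed between 0.0462% and 8.27% in all 16 neuron libraries and was 5.84% to 38.3% in whole worms. unc-32 itself was higher in day 1 neurons by 2.44 log2 units at 21% O2 (adjusted p = 6.75e-06, edgeR test), and its day 7 difference of 0.34 was not called. Summed epidermal markers were 216 to 386 CPM in day 7 neurons and 148 to 366 CPM in day 1 neurons, and 6 excretory canal markers summed to 23.5 to 87.7 and 92.1 to 464 CPM. The sums hid opposite changes within the lists. Of 8 epidermal markers tested, 4 were called higher and 3 lower on day 7 at 21% O2 (median log2 change 2.31). At 7% O2, 5 were higher and 3 lower (median 2.99). Of 5 excretory canal markers tested, 1 was higher and 1 lower at 21% O2, and 1 higher and 2 lower at 7% O2. Whether cells of those types contributed to the vha-5 values was not tested.

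**Figure D2:**
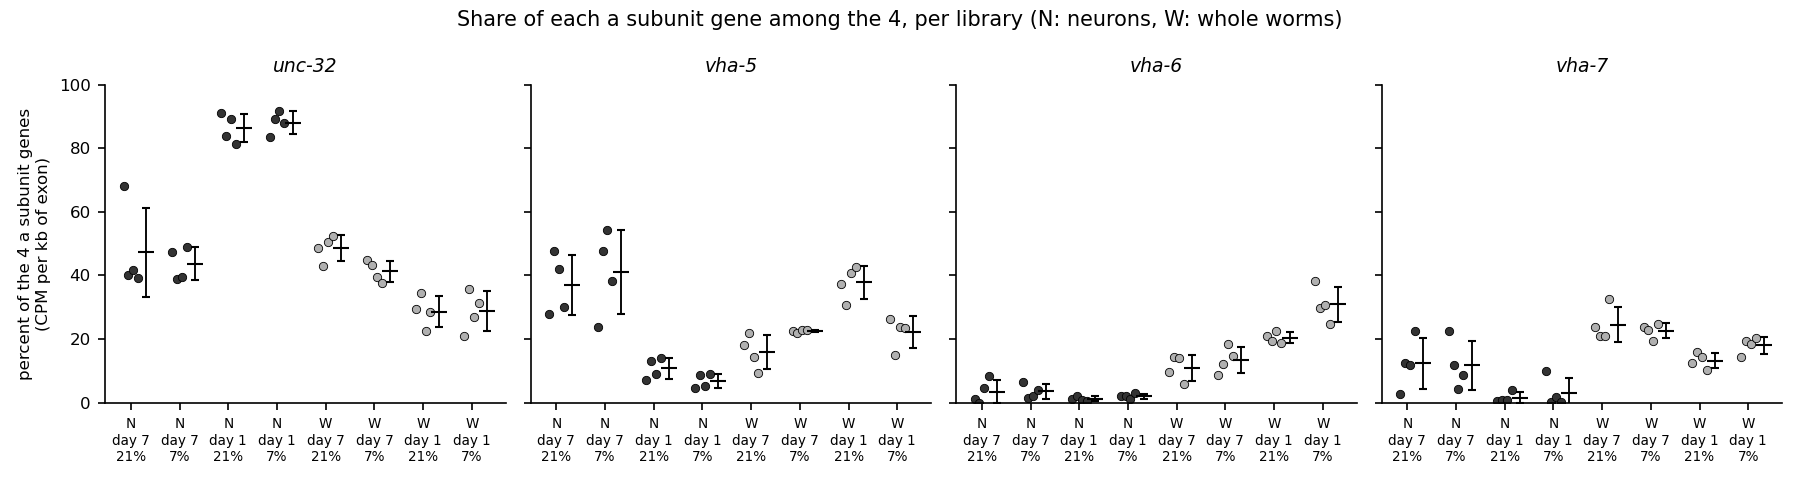
Percent of the summed CPM per kb of exon of the 4 a subunit genes (y axis) taken by unc-32, vha-5, vha-6 and vha-7 in each group (x axis). unc-32 held 81.4% or more in each day 1 neuron library, while in day 7 neurons it shared the total with vha-5 and vha-7.

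The cathepsins were lower in neurons than in whole worms wherever they differed. Of 6 cysteine cathepsins tested, 4 and 5 were called lower in day 7 neurons at 21% and 7% O2 and 4 were lower at each O2 level on day 1, with none called higher. Their median log2 difference ran from -1.34 (day 7, 21% O2) to -2.81 (day 1, 7% O2). Of the aspartyl proteases, 6 of 11 and 9 of 11 were called lower on day 7 at 21% and 7% O2, and 9 of 10 and 9 of 11 on day 1.

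CPR-6 is a cathepsin B-type cysteine protease. cpr-6 had 5.63, 19.1, 19.3 and 6.84 CPM in day 1 neurons at 21% O2 against 141, 160, 126 and 116 CPM in whole worms. The log2 difference was -3.29 (SE 0.42, adjusted p = 6.97e-05, edgeR test), and on day 7 it was smaller, at -1.77 (SE 0.36, adjusted p = 0.00396). CPL-1 is the worm cathepsin L, which processes yolk and cuticle proteins. cpl-1 had 81.0, 98.1, 91.0 and 88.6 CPM in day 7 neurons at 7% O2 against 372, 277, 284 and 207 CPM in whole worms, with a log2 difference of -1.68 (SE 0.20, adjusted p = 4.64e-05, edgeR test). It was called lower in neurons in all 4 comparisons, and the neuron and whole worm libraries of this comparison did not overlap.

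ASP-1 is an aspartyl protease of the intestine. asp-1 had 28.1, 26.4, 25.1 and 43.2 CPM in day 7 neurons at 21% O2 against 131, 139, 124 and 116 CPM in whole worms (log2 difference -2.03, adjusted p = 0.000287, edgeR test). On day 1 at 21% O2 the log2 difference was -2.20 (SE 0.26, adjusted p = 3.97e-05), and the neuron libraries lay below the whole worm libraries in all 4 comparisons. asp-6 was also called lower in neurons in all 4 comparisons, with log2 differences between -2.24 and -1.90. asp-14 showed the steepest called aspartyl difference among members tested in every comparison, with 1.63, 8.40, 8.34 and 7.39 CPM in day 1 neurons at 7% O2 against 145, 99.2, 176 and 109 CPM in whole worms (log2 difference -4.27, SE 0.55, adjusted p = 0.000166, edgeR test). asp-3 and asp-4 are the cathepsin D-like proteases known for their part in necrotic death of worm neurons. asp-4 was called lower in neurons in all 4 comparisons (log2 differences between -3.08 and -1.43), whereas asp-3 was called lower only on day 7 at 7% O2 (-1.18) and had values of 0.49, 0.57 and 0.70 in the other 3 comparisons, none called. The asp-4 call on day 7 at 21% O2 was lost without replicate 3 of the neurons or replicate 1, 2 or 3 of the whole worms, and the asp-3 call without replicate 3 of the whole worms.

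**Figure D3:**
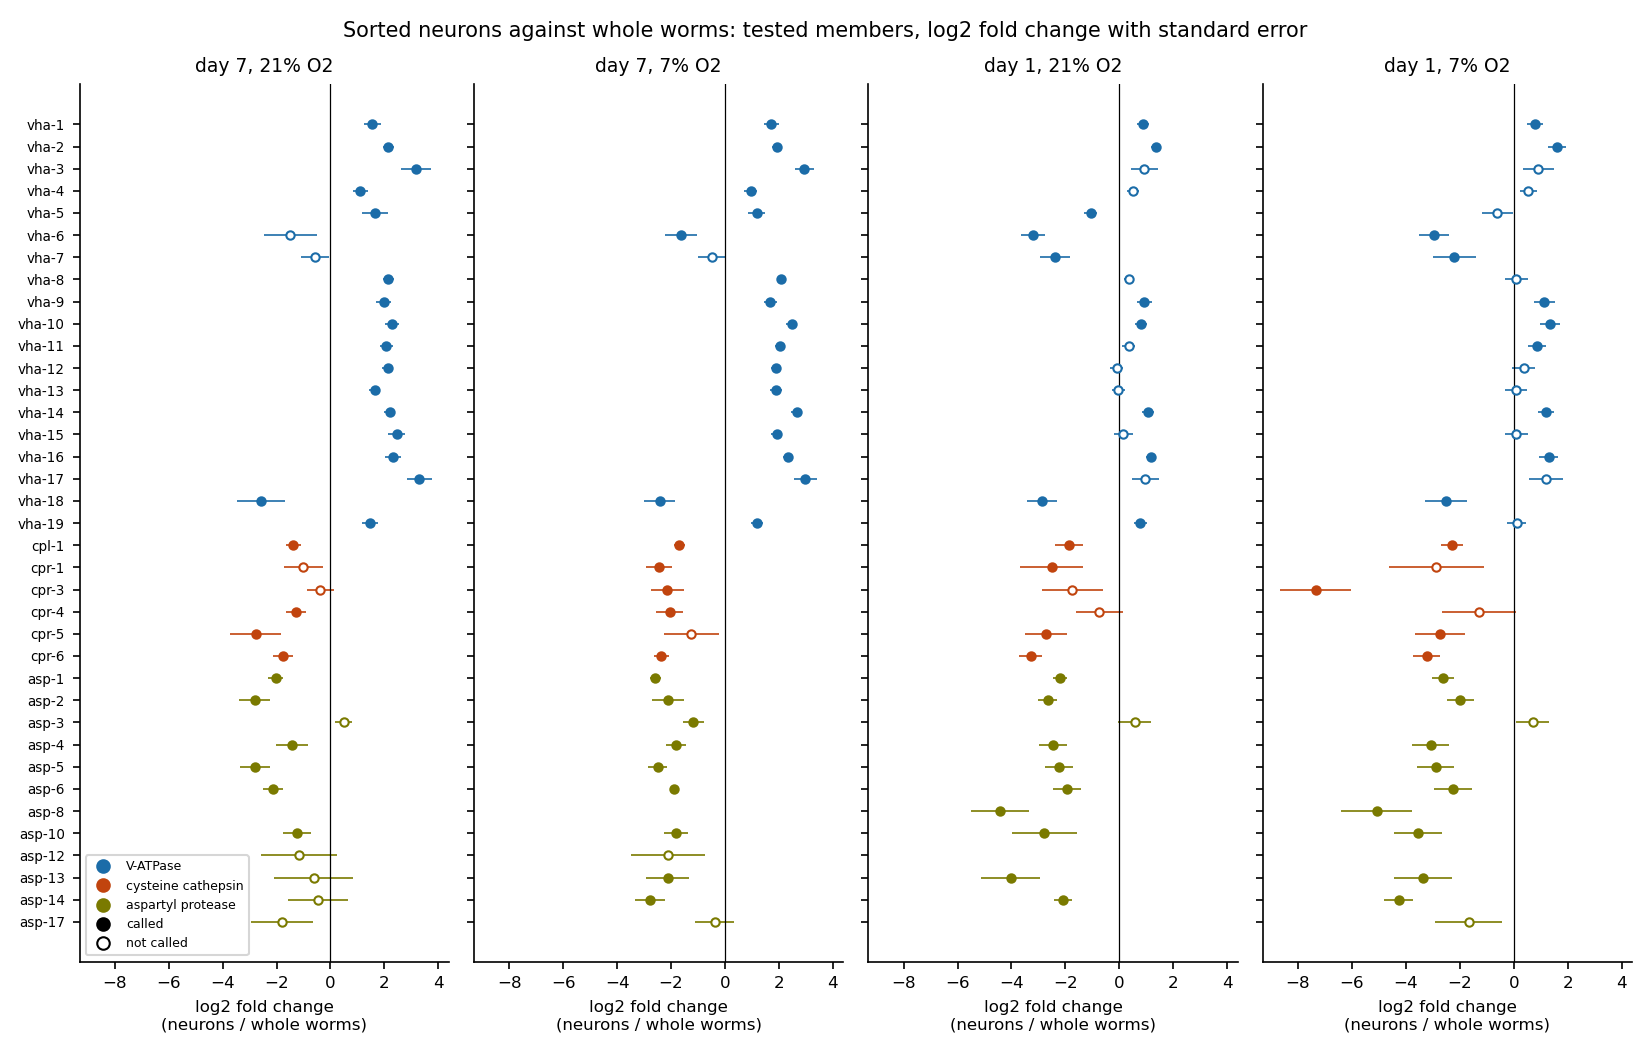
Log2 difference between neurons and whole worms with its SE (x axes) for each member tested (y axis), in 4 panels by day and O2 level, with filled points for called members. On day 7, 16 of the 19 V-ATPase genes lie to the right of 0, up to 3.3 for vha-17 at 21% O2, with vha-6, vha-7 and vha-18 to the left. Proteases lie to the left in every panel except asp-3, which is to the right in 3 of the 4 (0.49, 0.57 and 0.70).

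The next question was how the members change with age, and whether they do so alike in neurons and in the whole animal. In neurons, pump genes were higher on day 7 than on day 1. In whole worms at 21% O2 they were lower. At 21% O2, 10 members were called higher and 1 lower in day 7 neurons of 35 tested, where 12.1% of all genes were called higher and 18% lower (30.1% in all). At 7% O2, 18 were higher and 1 lower of 35, where 15.4% of all genes were called higher and 21.0% lower (36.4% in all). In whole worms, 4 were higher and 16 lower of 37 at 21% O2, beside 7.92% and 10.7% of all genes (18.7% in all), and 4 higher and 6 lower of 37 at 7% O2, beside 7.49% and 8.36% (15.9% in all).

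Of the 19 V-ATPase genes, 7 were called higher in day 7 neurons at 21% O2 and 13 at 7% O2, and none lower. Their median log2 change was 0.82 at 21% O2, where the median over all genes was -0.20, and 1.31 at 7% O2, where it was -0.28. By sector, 5 V1 and 2 V0 genes rose at 21% O2, and 7 V1 and 6 V0 genes rose at 7% O2. Per library, the summed V-ATPase level was 5259, 5560, 5452 and 3715 CPM in day 7 neurons against 2904, 2322, 3531 and 2942 CPM in day 1 neurons at 21% O2. The groups did not overlap, and the lowest day 7 value was replicate 4, which also had the highest intestinal marker sum of its group. At 7% O2 the sums were 5148, 7512, 5944 and 5435 CPM on day 7 against 1480, 3579, 2750 and 3413 CPM on day 1.

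Without replicate 4 of the day 7 neurons at 21% O2 and replicate 1 of the day 1 neurons at 7% O2, 12 V-ATPase genes were called higher at 21% O2 and 14 at 7% O2, and the members called at 21% O2 were 15 higher and 3 lower. The 7 pump genes called at 21% O2 became 3 without replicate 2 of the day 1 neurons, 4 without replicate 3 of the day 7 neurons, 10 without replicate 4 of the day 7 neurons and 6 with the replicate number as a block. At 7% O2 the 13 became 11 to 13 in the fits that left out a library and 12 with the block. With DESeq2, 12 and 15 pump genes were called higher. The median over all genes moved to 0.09 at 21% O2 and -0.06 at 7% O2 under the DESeq2 size factors, and the pump median relative to all genes was 1.02 and 1.57 log2 units there, against 1.03 and 1.58 with TMM. The summed O2-sensing markers were lower and the summed intestinal markers higher in the same day 7 neuron libraries, as given above. Of 10 intestinal markers tested, 3 were called higher and 1 lower on day 7 at 21% O2 (median log2 change 0.07). At 7% O2, 5 were called higher and 0 lower (median 1.79). Of the touch neuron markers, 7 of 7 were called lower on day 7 at each O2 level (median log2 change -3.13 at 21% and -4.12 at 7% O2), and of the markers of all neurons 10 of 11 (-3.04 and -3.35). The part of these shifts in the pump changes was not tested. The intestinal a subunit vha-6 changed by 0.18 and -0.10 log2 units between the ages in neurons, neither called. In whole worms vha-6 itself changed by -1.61 log2 units at 21% O2 and -1.53 at 7% O2, both called. How far the vha-6 level in neurons follows intestinal RNA there was not tested.

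vha-12, the B subunit, had 670, 545, 560 and 414 CPM in day 7 neurons against 181, 160, 274 and 247 CPM in day 1 neurons at 21% O2. Every day 7 library was above every day 1 library, and the log2 change was 1.36 (SE 0.34, adjusted p = 0.00597, edgeR test). vha-8 had 494, 733, 535 and 510 CPM on day 7 against 63.8, 91.4, 220 and 218 CPM on day 1 at 7% O2 (log2 change 1.94, SE 0.35, adjusted p = 0.000289, edgeR test). At 21% O2 vha-8 rose by 1.13 (SE 0.34, adjusted p = 0.0219). The catalytic vha-13 rose by 1.02 at 21% O2 and 1.54 at 7% O2, both called.

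Not every pump gene was called. The most abundant c subunit gene vha-2 changed by 0.19 and 0.24 log2 units in neurons and the c″-type vha-4 by 0.14 and 0.47, none of them called, while vha-3 was called higher at both O2 levels (1.28 and 2.08). The call for vha-3 at 21% O2 (adjusted p = 0.0814, edgeR test) was lost without the low-count filter, with the replicate number as a block, and without replicate 2, 3 or 4 of the day 1 neurons or replicate 2 or 3 of the day 7 neurons. unc-32 fell with age in neurons. It had 142.2, 138, 145 and 71.4 CPM in day 7 neurons against 665, 393, 638 and 377 CPM in day 1 neurons at 21% O2, and its log2 change was -2.04 (SE 0.37, adjusted p = 0.000426, edgeR test), with -1.95 at 7% O2. vha-5 was called higher at 7% O2 (1.54, adjusted p = 0.0342) and not at 21% O2 (0.82, adjusted p = 0.285, edgeR test).

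In whole worms at 21% O2, 10 of the 19 V-ATPase genes were called lower on day 7 and none higher, with a median log2 change of -0.67 against -0.01 over all genes. At 7% O2, 2 were called lower (vha-6 and vha-11) and the median was -0.14 against -0.02. vha-8 had 109, 110, 107 and 89 CPM in day 7 whole worms against 174, 156, 188 and 196.5 CPM in day 1 whole worms at 21% O2, with no overlap, and fell by 0.73 log2 units (SE 0.15, adjusted p = 0.00246, edgeR test). vha-5 fell by 1.96 log2 units at 21% O2 (SE 0.33, adjusted p = 0.000416) with 31.9, 43.0, 25.1 and 12.3 CPM on day 7 against 112, 85.4, 132 and 129 CPM on day 1. Summed epidermal markers were 80.2 to 118 CPM in day 7 whole worms and 230 to 1120 CPM in day 1 whole worms. Of 9 epidermal markers tested, 3 were called higher and 4 lower on day 7 at 21% O2. The part of these markers in the vha-5 value was not tested.

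The test of the difference itself compared the age change in neurons with that in whole worms at the same O2 level, in 1 model over all 32 libraries. At 21% O2, 14 members were called with a greater change in neurons and none with a lesser one, of 37 tested, beside 10.6% and 10.9% of all genes (21.6% in all), and 13 of the 14 were V-ATPase genes, the other being cpr-6. At 7% O2, 14 were called greater and 1 lesser of 37, beside 13.9% and 15.7% of all genes (29.5% in all), again with 13 V-ATPase genes, the other being cpr-3, and the 1 with the lesser change was asp-3, a call lost in 12 of the 16 fits that left out a library. The pump median of this difference was 1.80 log2 units at 21% O2 and 1.43 at 7% O2, against -0.01 and -0.11 over all genes. vha-12 differed by 2.34 log2 units (SE 0.41, adjusted p = 0.000106) at 21% O2 and 1.61 (SE 0.40, adjusted p = 0.00388) at 7% O2 in the edgeR test. vha-8 differed by 1.89 (adjusted p = 0.000596) and 2.12 (adjusted p = 0.000105) in the same test. vha-11, the C subunit, differed by 1.83 at 21% O2, and vha-14 and vha-13 by 1.57 and 1.91 at 7% O2. vha-5 differed by 2.83 and 1.88.

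**Figure D4:**
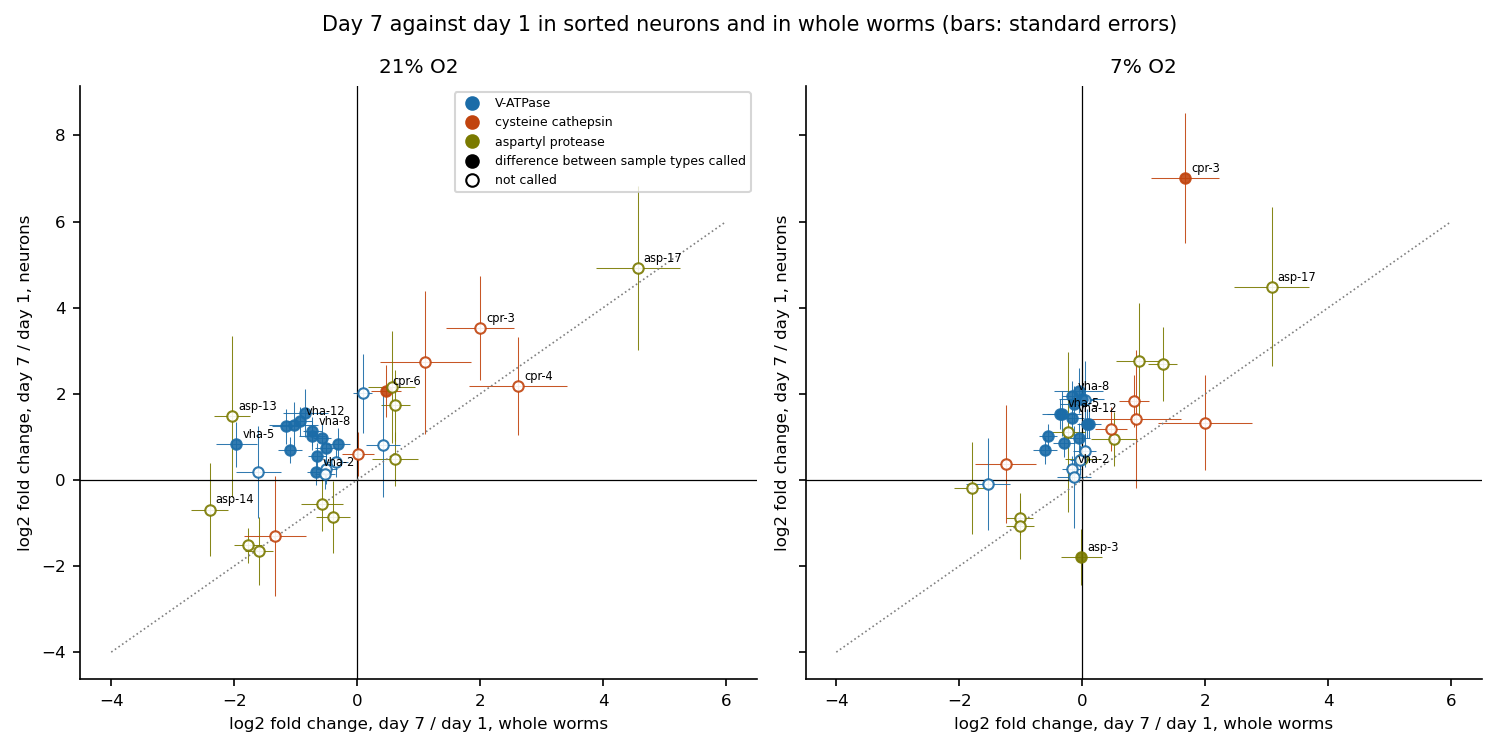
Log2 change between day 7 and day 1 in neurons (y axis) against that in whole worms (x axis), with SE bars, for each member tested in both, at 21% and 7% O2. Filled points are members whose change differed between the sample types. V-ATPase genes such as vha-12 (1.36 in neurons and -0.94 in whole worms at 21% O2) sit above and to the left of the 0 lines.

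Some proteases also changed with age in neurons. Of 6 cysteine cathepsins tested, 2 were called higher at 21% O2 and 3 at 7% O2 in day 7 neurons. cpr-6 had 39.3, 30.7, 60.3 and 79.8 CPM in day 7 neurons against 5.63, 19.1, 19.3 and 6.84 CPM in day 1 neurons at 21% O2. The day 7 libraries were all higher, and the log2 change was 2.07 (SE 0.60, adjusted p = 0.0169, edgeR test), with 1.83 at 7% O2. In whole worms 2 cysteine cathepsins were called higher and 1 lower at 21% O2, and 2 higher at 7% O2. There cpr-6 was called higher at 7% O2 (0.85) and not at 21% O2 (0.47), and the difference between sample types was 1.62 log2 units at 21% O2 (SE 0.57, adjusted p = 0.0486, edgeR test). That difference was not called without replicate 1 of the day 1 neurons or replicate 4 of the day 7 neurons.

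cpr-3, another cathepsin B-type gene, had 129, 190, 20 and 52 counts in day 7 neurons at 7% O2 against 1, 0, 1 and 0 counts in day 1 neurons. The ratio of the day 7 to the day 1 group was 161 (95% interval 44.3 to 1333), an interval that covers counting error only. cpr-3 was also called higher on day 7 in neurons at 21% O2 (3.53 log2 units, adjusted p = 0.0405) and in whole worms at 21% O2 (2.00, adjusted p = 0.0218) and 7% O2 (1.67, adjusted p = 0.0563) in the edgeR test. cpl-1 was called higher in day 7 neurons at 7% O2 (1.17, adjusted p = 0.0887) and not at 21% O2 (0.60, adjusted p = 0.437, edgeR test). The call at 7% O2 was lost with the block and without any 1 of the libraries of these groups other than replicate 1 of the day 1 neurons.

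asp-1 was the only member called lower in day 7 neurons at 21% O2. It had 28.1, 26.4, 25.1 and 43.2 CPM on day 7 against 62.1, 132, 98.6 and 65.0 CPM on day 1, with no overlap, and its log2 change was -1.52 (SE 0.40, adjusted p = 0.00936, edgeR test). That call was lost when no low-count filter was applied. In whole worms asp-1 fell in both O2 levels, by 1.77 log2 units at 21% O2 and 1.02 at 7% O2. The whole worm libraries held 131, 139, 124 and 116 CPM on day 7 against 487, 479, 462 and 381 CPM on day 1 at 21% O2.

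Several other aspartyl proteases moved in whole worms. At 21% O2, 5 of 12 were called lower on day 7, among them asp-14 (-2.40, adjusted p = 1.88e-05), asp-13 (-2.03, adjusted p = 6.07e-05) and asp-2 (-1.60, adjusted p = 6.81e-05) in the edgeR test. asp-17 rose. It had 10.9, 6.64, 7.10 and 6.79 CPM in day 7 whole worms against 0.0556, 0.119, 0.424 and 0.889 CPM in day 1 whole worms (log2 change 4.56, SE 0.68, adjusted p = 8.68e-05, edgeR test). asp-17 was also called higher in day 7 neurons at both O2 levels, with 0.923, 1.9, 0 and 6.04 CPM on day 7 against 0, 0.247, 0 and 0 CPM on day 1 at 21% O2, and these groups overlapped at 0. asp-4 rose in whole worms by 0.62 at 21% O2, a call lost with the block and in 6 of the 8 fits that left out a library, and by 1.31 at 7% O2, and in neurons by 2.68 at 7% O2 (SE 0.86, adjusted p = 0.024, edgeR test). asp-3 was called lower in day 7 neurons at 7% O2 (-1.79, adjusted p = 0.0456), with 14.8, 43.6, 57.6 and 42.1 CPM on day 7 against 27.9, 127, 183 and 211 CPM on day 1, and the groups overlapped. The asp-3 call was lost without replicate 4 of the day 1 neurons or replicate 1 of the day 7 neurons.

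**Figure D5:**
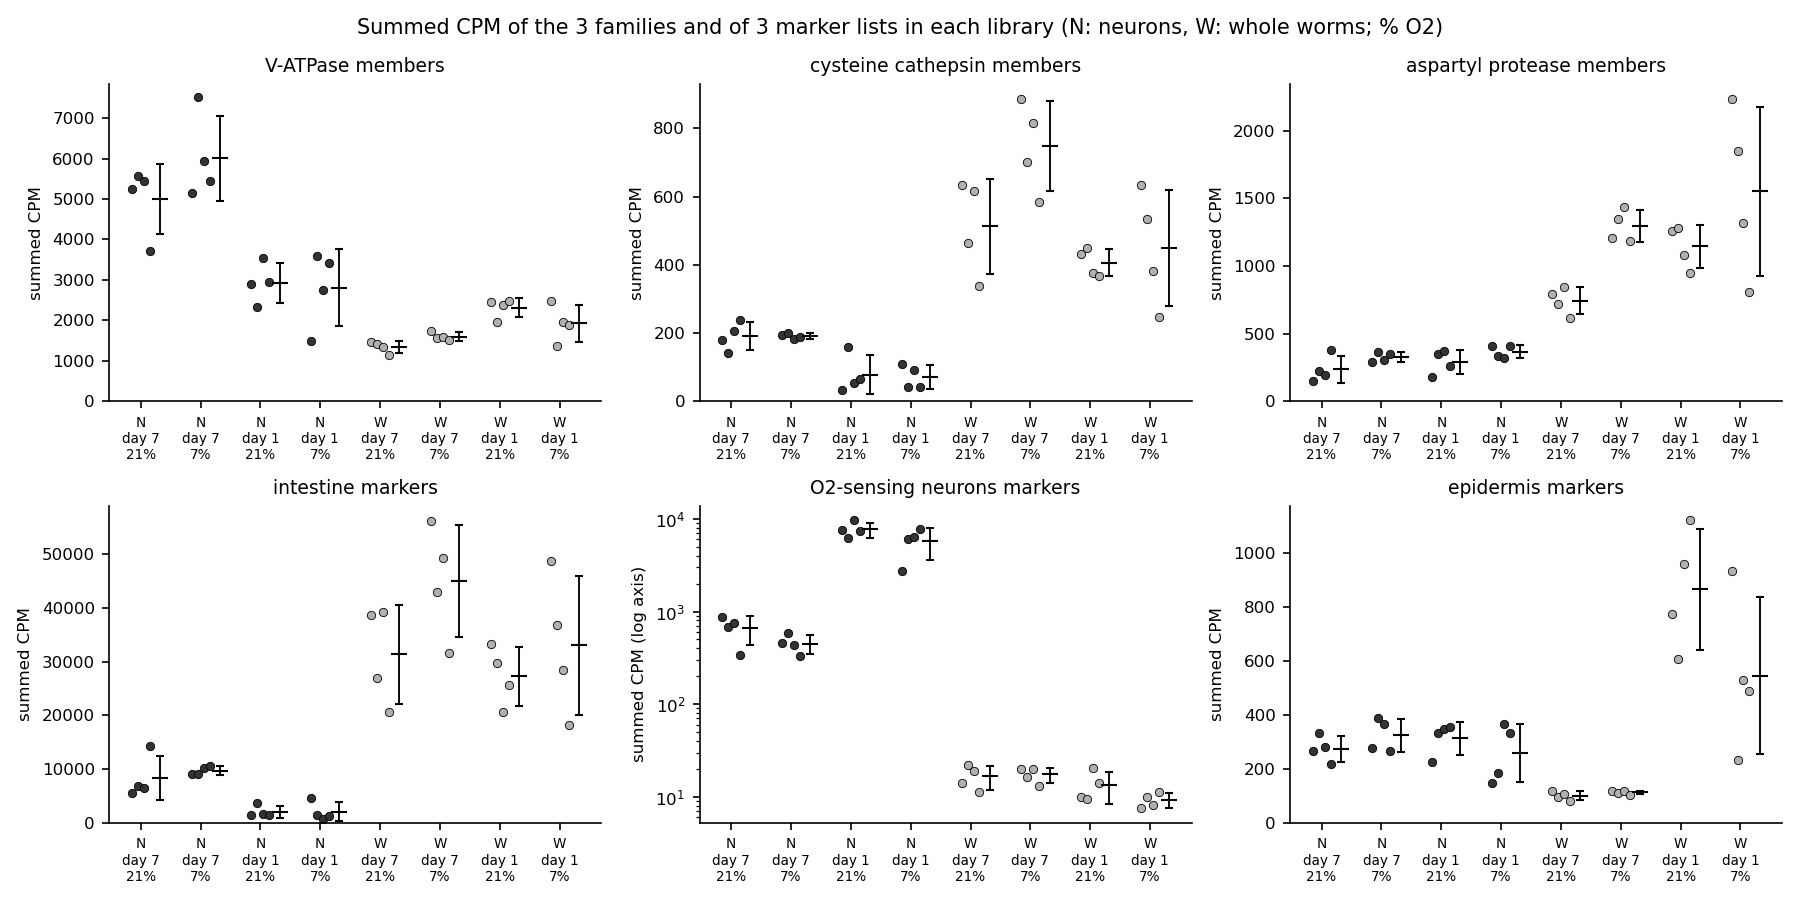
Summed CPM of the V-ATPase, cysteine cathepsin and aspartyl protease genes and of the intestinal, O2-sensing neuron (log axis) and epidermal markers (y axes) in each library by group (x axes). The V-ATPase sum is 3715 to 7512 CPM in day 7 neurons and 1480 to 3579 CPM in day 1 neurons, while the O2-sensing marker sum is 327 to 869 and 2756 to 9644 CPM.

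The third question was whether lifelong culture at 21% O2, which keeps these neurons active, changes the members relative to 7% O2. No member was called in neurons on day 1 (0 of 35 tested, background 0.0939%) or on day 7 (0 of 35, background 0.154%) by the edgeR quasi-likelihood test. Hardly any gene was called in these comparisons, so the lack of called members shows nothing particular to them. At an unadjusted p under 0.05 there were 2 members on day 1 and 0 on day 7, and DESeq2 called 1 and 0. The 2 members with the smallest p on day 1 were cpr-3 (log2 difference 5.09, adjusted p = 0.339) and vha-19 (0.89, adjusted p = 0.548), and on day 7 asp-2 (-1.47, adjusted p = 0.754) and asp-1 (-0.74, adjusted p = 0.756). On day 1 cpr-3 had 1, 13, 12 and 61 counts at 21% O2 against 1, 0, 1 and 0 counts at 7% O2. Its difference thus rested mainly on replicate 4 at 21% O2 and on nearly empty libraries at 7% O2. vha-19 encodes an accessory V0 subunit. On day 7 the difference between 21% and 7% O2 was -0.11 log2 units (SE 0.33) for vha-12, -0.33 (SE 0.34) for vha-8 and -0.49 (SE 0.34) for vha-13, none of them called. The age by O2 difference in neurons was called for 0 of 35 members (background 0.0597%), with 0 at an unadjusted p under 0.05 and 0 by DESeq2.

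In whole worms, 2 of 37 members were called lower at 21% than at 7% O2 on day 7 (background 0.0551%), both aspartyl proteases. asp-1 had 131, 139, 124 and 116 CPM at 21% O2 against 267, 311, 341 and 289 CPM at 7% O2, and the log2 difference was -1.25 (SE 0.23, adjusted p = 0.0523, edgeR test). asp-14 had 9.58, 14.5, 20.6 and 6.66 CPM against 31.5, 25.5, 54.1 and 40.2 CPM (log2 difference -1.56, SE 0.30, adjusted p = 0.0832). Neither pair of groups overlapped. Without replicate 1, 2 or 4 at 21% O2 or replicate 1 or 3 at 7% O2 the number called was 0, and without each other library of these groups it was 1. On day 1 no member was called (0 of 37, background 0.00918%) by edgeR, with 6 at an unadjusted p under 0.05 and 3 by DESeq2, and the smallest p values belonged to asp-14 (-0.95, adjusted p = 0.199) and vha-5 (0.95, adjusted p = 0.251). The age by O2 difference in whole worms was called for 1 of 37 members (background 0.211%). asp-13 had 5.95, 4.83, 3.48 and 3.90 CPM at 21% O2 against 10.4, 9.99, 12.3 and 10.6 CPM at 7% O2 on day 7, and 15.8, 27.3, 14.6 and 19.3 against 16.8, 11.3, 12.6 and 10.5 CPM on day 1. Its difference of age changes was -1.80 log2 units (SE 0.40, adjusted p = 0.0984, edgeR test), a call lost in 12 of the 16 fits that left out a library.

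Other lysosomal genes, from a list of 49 genes of which 48 were in the table, were set beside the members. They comprise other hydrolases, membrane proteins and transporters, protease inhibitors and regulators. In neurons against whole worms on day 7, 6 were called higher and 9 lower of 37 tested at 21% O2 (40.5% in all, beside 40.2% of all genes), and 8 higher and 13 lower of 40 at 7% O2 (52.5% beside 45.9%). On day 1 the counts were 7 higher and 15 lower of 40 at 21% O2 (55% beside 52.8%), and 8 higher and 13 lower of 41 at 7% O2 (51.2% beside 46.3%). These pooled shares lay near those of all genes, but the balance of directions differed. Calls in the list were more often lower than higher in each of the 4 comparisons. Among all genes the reverse held each time. This difference in direction was not itself tested. Among the other hydrolases, 1 was called higher and 5 lower of 13 on day 7 at 21% O2. hlh-30, the worm orthologue of the lysosomal transcription regulator TFEB, was called higher in neurons in all 4 comparisons, by 1.61 and 1.15 log2 units on day 7 and 2.28 and 2.58 on day 1 at 21% and 7% O2.

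With age, 5 of these genes were called higher and 5 lower of 39 in day 7 neurons at 21% O2 (25.6% in all, beside 30.1% of all genes), and 7 higher and 5 lower of 39 at 7% O2 (30.8% beside 36.4%). hlh-30 fell in neurons by 0.79 log2 units at 21% O2 (adjusted p = 0.0378) and by 1.03 at 7% O2 (adjusted p = 0.00733) in the edgeR test. lmp-1, a lysosomal membrane glycoprotein of the LAMP type, rose in neurons by 0.89 and 1.76 log2 units, both called. In whole worms, 4 were higher and 6 lower of 43 at 21% O2 (23.3% beside 18.7%), and 7 higher and 1 lower of 43 at 7% O2 (18.6% beside 15.9%). Of all genes, 7.92% were called higher and 10.7% lower at 21% O2, and 7.49% and 8.36% at 7% O2. The pooled shares were thus near those of all genes, but at 7% O2 the list's calls were mostly higher and those of all genes were not. The cystatin-type protease inhibitors cpi-1 and cpi-2 and the cathepsin Z-type gene cpz-2 were called higher in day 7 whole worms at both O2 levels.

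The 8 members tested in no comparison were cpr-2, asp-7, asp-9, asp-11, asp-15, asp-16, asp-18 and asp-19. asp-15 and asp-19 had no count in any library. asp-7, asp-18, asp-11, asp-16 and asp-9 had 2, 1, 6, 14 and 33 counts over all libraries. cpr-2 had 354 counts, of which 288 were in replicate 2 of the day 7 neurons at 7% O2, so that its day 7 level in neurons rests on 1 library. asp-8 was tested in some comparisons only, with 0 counts in all day 7 neuron libraries at 21% O2 against 38 counts in the 4 whole worm libraries. With 3 counts set as the floor for the neuron group, it was 16.8-fold lower in neurons. The 95% interval of the ratio of neurons to whole worms reached up to 0.077, a smaller fold. These figures cover counting error only.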

How the data were processed

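Per the study's methods, reads were trimmed with Cutadapt 1.9, aligned with STAR 2.5.2b to WBcel235, cleared of ribosomal RNA genes, and counted per gene over exons without strand by featureCounts 1.5.1. The values the authors deposited are raw counts per gene for each library. Whole worm RNA was a portion of the dissociated cells taken before sorting, so neuron and whole worm libraries share dissociations. Which libraries do so is not given in the sources used here, and the fits were unpaired. The gene families and lists were chosen with earlier results of these data known, and members were then picked by name alone.

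Genes passing filterByExpr (minimum count 10) were normalized by TMM and tested two-sided in edgeR 4.0.16 (R 4.3.3) with robust quasi-likelihood fits and F tests, with Benjamini-Hochberg adjustment over all genes tested. Neurons and whole worms were compared with the 8 libraries of 2 groups, age and O2 effects with the 16 libraries of a sample type, and the difference of age changes with all 32. The SE of a log2 change is its size divided by the square root of F. The scripts were tested on simulated data. Replicates are described as independent, so p-values measure the spread between them. No 2 libraries were identical. Total counts ran from 5365596 to 30666288, and the noncoding gene F31C3.14, inside a ribosomal RNA gene, took 5.33% to 53.8% of them. A floor of 3 counts per library was 0.115 to 0.568 CPM. Of the genes in the table, 99.4% were found in the Ensembl annotation used for positions.

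For each comparison, values per library are given for up to 3 called members in each direction with the smallest p and no overlap between groups, plus the a subunits, vha-2, vha-3, cpl-1, cpr-6, asp-3 and asp-4. Members named otherwise were chosen after their values were seen. Alternatives were DESeq2 1.42.0, its size factors within edgeR, no low-count filter, replicate number as a block, F31C3.14 left out, each library left out, and, chosen after seeing the data, the 2 neuron libraries that stand apart left out.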

Additional observations from a re-analysis of the deposited data

Results flagged for a closer look

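Dixon's criterion marks a library far from the other 3, which independent, normally distributed values meet in about 1 in 20. The CPM values examined were not log-transformed and came from the same libraries, so that rate need not apply. Of 228 groups of 4 libraries examined, 20 (8.8%) held such a library. For day 7 neurons at 21% O2, these were the V-ATPase sum of 3715 CPM in replicate 4 (5259 to 5560 in the others), asp-1 at 43.2 CPM and asp-14 at 31.9 CPM in the same replicate, asp-13 at 10.8 CPM in replicate 3 and vha-7 at 6.07 CPM in replicate 1. For day 7 neurons at 7% O2, they were asp-6 at 102 CPM and asp-8 at 1.19 CPM in replicate 3, and the intestinal a subunit vha-6 at 18.5 CPM in replicate 1. For day 1 neurons at 21% O2, asp-8 stood at 1.19 CPM, cpr-3 at 6.62 CPM and vha-7 at 20.5 CPM in replicate 4, and asp-13 at 3.52 CPM in replicate 2. For day 1 neurons at 7% O2, replicate 1 held asp-14 at 1.63 CPM, asp-17 at 1.24 CPM and asp-6 at 159 CPM. In whole worms at 21% O2, asp-3 at 25.3 CPM and vha-8 at 89 CPM were low in replicate 4 of day 7, asp-17 at 10.9 CPM was high in replicate 1 of day 7, and cpl-1 at 249.6 CPM and cpr-3 at 15.2 CPM were high in replicates 1 and 2 of day 1.

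The change between day 7 and day 1 differed between neurons and whole worms for 14 members at 21% O2 and 15 at 7% O2 by the interaction test. At 21% O2 the log2 differences were 2.34 for vha-12, 1.83 for vha-11, 1.89 for vha-8, 1.62 for cpr-6, 0.90 for vha-2, 2.37 for vha-3 and 2.83 for vha-5. At 7% O2 they were 2.12 for vha-8, 1.57 for vha-14, 1.91 for vha-13, -1.76 for asp-3, 2.14 for vha-3 and 1.88 for vha-5. In whole worms the age change differed between 21% and 7% O2 for 1 member, asp-13, by -1.80.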

How the results depend on the processing

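No named member reversed its direction under any alternative that was run. The count of members called for day 7 against day 1 in neurons at 21% O2 (11) was 19 with DESeq2, 17 with its size factors in edgeR, 17 without F31C3.14 and 18 without the 2 neuron libraries that stand apart, and the cause was not tested. For 21% against 7% O2, the count in day 1 neurons (0) was 1 with DESeq2. In day 1 whole worms (0) it was 3 with DESeq2, 2 with no low-count filter and 1 with the replicate block. In day 7 whole worms (2) it was 4 with DESeq2, 1 with its size factors in edgeR, 5 with no low-count filter and 1 without F31C3.14. The age by O2 count in whole worms (1) was 2 with DESeq2, 5 with no low-count filter and 2 with the replicate block. The other counts moved by less than 1.5 times.

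Leaving out each library in turn gave 24 to 29 and 29 to 34 members for neurons against whole worms on day 7 at 21% and 7% O2, and 22 to 26 and 20 to 27 on day 1. The age counts ran from 8 to 15 and 16 to 20 in neurons (15 without replicate 4 of day 7 at 21% O2), and 16 to 23 and 9 to 12 in whole worms. The O2 counts stayed at 0 to 0 in neurons at both ages and in day 1 whole worms, and ran from 0 to 1 in day 7 whole worms. The age by O2 counts were 0 to 0 in neurons and 0 to 2 in whole worms, and the sample type by age counts 12 to 16 and 14 to 19. The 12 at 21% O2 came without replicate 4 of the day 7 neurons, and the 19 at 7% O2 without replicate 1 of the day 1 neurons. Of the single-member results, 836 kept their call in these fits and 84 lost it.

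Whole worm RNA was an aliquot of the suspension that was sorted, so neuron and whole worm libraries of an age and O2 level share dissociations, but the sources used here do not say whether the replicate number marks the shared one. In no comparison did all 4 same-numbered pairs correlate above 0.1. Same-numbered libraries of day 1 neurons and whole worms at 21% O2, and of day 7 whole worms at 21% and 7% O2, each correlated best with their own number in 4 of 4 cases, which is a hint from the data only. With the replicate number as a block, 9 members were called for age in neurons at 21% O2 and 16 at 7% O2. Single calls lost were vha-3 (age, neurons, 21% O2), cpl-1 (age, neurons, 7% O2), asp-4 (age, whole worms, 21% O2) and asp-3 (sample type by age, 7% O2).

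Precision was limited by 4 libraries in a group and, for the low-count proteases in neurons, by depth.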
